A study of Homo sapiens with 24 samples.

Results

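The genes of the TRAIL pathway of apoptosis were followed in 686Tu (MDA686TU) cells, an established human head and neck cancer line. The members were 10 genes fixed by name: the ligand TNFSF10, the receptors TNFRSF10A, TNFRSF10B, TNFRSF10C and TNFRSF10D, and the proteins FADD, CASP8, CASP10, CFLAR and RIPK1 that act below the receptors. Their Ensembl identifiers were found in 10 of the 60617 rows of the count table. Of these, 9 were among the 15476 genes with enough reads to be tested, and TNFRSF10C was not.

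Cells were left untreated (NT) or were given the green tea polyphenol epigallocatechin gallate (EGCG) at 40 µM, the stilbene resveratrol at 15 µM, or both agents at those doses (Combination), each for 24 h. All groups grew in the same serum-containing medium, and each had 6 libraries of stranded poly(A) RNA, a design that asks how either agent and their mixture change the transcriptome. Resveratrol was kept as a DMSO stock and EGCG was dissolved in water. The methods do not say whether untreated cells received DMSO, so an effect of the solvent cannot be told apart from one of resveratrol. The sources do not say that the 6 libraries of a group came from separate cultures, and the p-values then measure the spread between these libraries, which may be technical. All values come from 1 cell line, and fewer cells carrying a transcript cannot be told apart from less of it per cell.

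The libraries held 7034872 to 11735574 counts each, and no pair of them was identical. All 8 squamous epithelial markers were present in every group, with summed levels of 16368 to 17425 CPM (counts scaled to library size) in NT, 16017 to 17614 in EGCG, 14503 to 15218 in Resveratrol and 14071 to 15305 in Combination. None of 6 immune markers had a mean of 1 CPM over the 24 libraries, although CD68 reached 1.15 CPM in 1 of them, and their summed level was 0.426 to 1.71 CPM. Of 4 endothelial markers 1, VWF, had a mean of 1 CPM or more, with a summed level of all 4 of 0.667 to 2.34 CPM. The summed level of 6 fibroblast markers was 124 to 150 CPM in NT, 101 to 123 in EGCG, 157 to 184 in Resveratrol and 181 to 207 in Combination. Nearly all of that was COL1A1, while THY1 was at 0. Replicates 1 to 3 of every group had 0.249 to 0.326% mitochondrial counts and replicates 4 to 6 had 0.448 to 0.775%, a split that the labels do not name. With the replicate set as a term in the fit no member's call changed, and values within either set are given beside a number of results. The part of the marker differences in the results that follow was not tested.

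TRAIL, the product of TNFSF10, is a death ligand of the tumour necrosis factor family. It binds the death receptors DR4 (TNFRSF10A) and DR5 (TNFRSF10B), whose intracellular death domains recruit the adaptor FADD, which in turn gathers procaspase-8 and procaspase-10 into a signalling complex that starts apoptosis. TNFRSF10C and TNFRSF10D encode decoy receptors without a working death domain, CFLAR encodes c-FLIP, a caspase-8-like protein that mostly holds the complex in check, and RIPK1 encodes a kinase that can turn death receptor signalling towards NF-κB, apoptosis or necroptosis. The pathway is of interest in squamous carcinomas because tumour cells often tolerate TRAIL until the balance of these parts shifts.

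Per length, FADD and 3 of the receptor genes stood highest in untreated cells, and TNFRSF10C, CASP10, CFLAR and the ligand lowest. In FPKM (fragments scaled by gene length and library depth), FADD had a mean of 51.3 in NT, with 45.2 to 54.2 over the 6 libraries. TNFRSF10B followed at 16.0 (15.2 to 16.9), TNFRSF10D at 11.3 (9.79 to 12.1) and TNFRSF10A at 9.99 (9.29 to 10.9). The last 2 overlapped in range and were next to CASP8 at 9.14 (8.41 to 9.74), which in turn overlapped RIPK1 at 7.97 (7.06 to 8.43) by a narrow margin. Far lower were TNFSF10 at 1.70 (1.39 to 1.92), CFLAR at 1.05 (0.952 to 1.18) and CASP10 at 0.693 (0.514 to 0.816), whose ranges did not overlap. TNFRSF10C was listed at 0 in all untreated libraries. This order depends on the gene lengths behind the FPKM, which were not checked. In mean normalized counts of NT, not scaled by length, CFLAR had 207 beside 289 for RIPK1.

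With resveratrol 6 of the 9 tested genes rose and 2 fell, as many did so with the mixture of both agents, and with EGCG alone none passed the threshold. Here a gene was called when edgeR's quasi-likelihood test gave an adjusted p below 0.1 and a p below 0.05. With resveratrol 8 of 9 genes were called, beside 56.9% of all 15476 genes tested, 28.9% higher and 28.0% lower. With the mixture 8 of 9 were called, beside 59.8% of all genes, 29.9% in each direction. These shares of all genes were large, so that a call by itself sets a member little apart. The median log2 fold change over the 9 members was 0.33 with resveratrol and 0.33 with the mixture, while the median over all genes was 0.00 in both. In absolute size the members' medians were 0.35 in both, against 0.20 and 0.22 over all genes. The members, and the further lists below, were chosen with earlier results of these data known. Their medians and counts beside all genes are therefore a description and no test of the set. Both comparisons use the same 6 control libraries and are therefore not independent of each other.

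**Figure D1:**
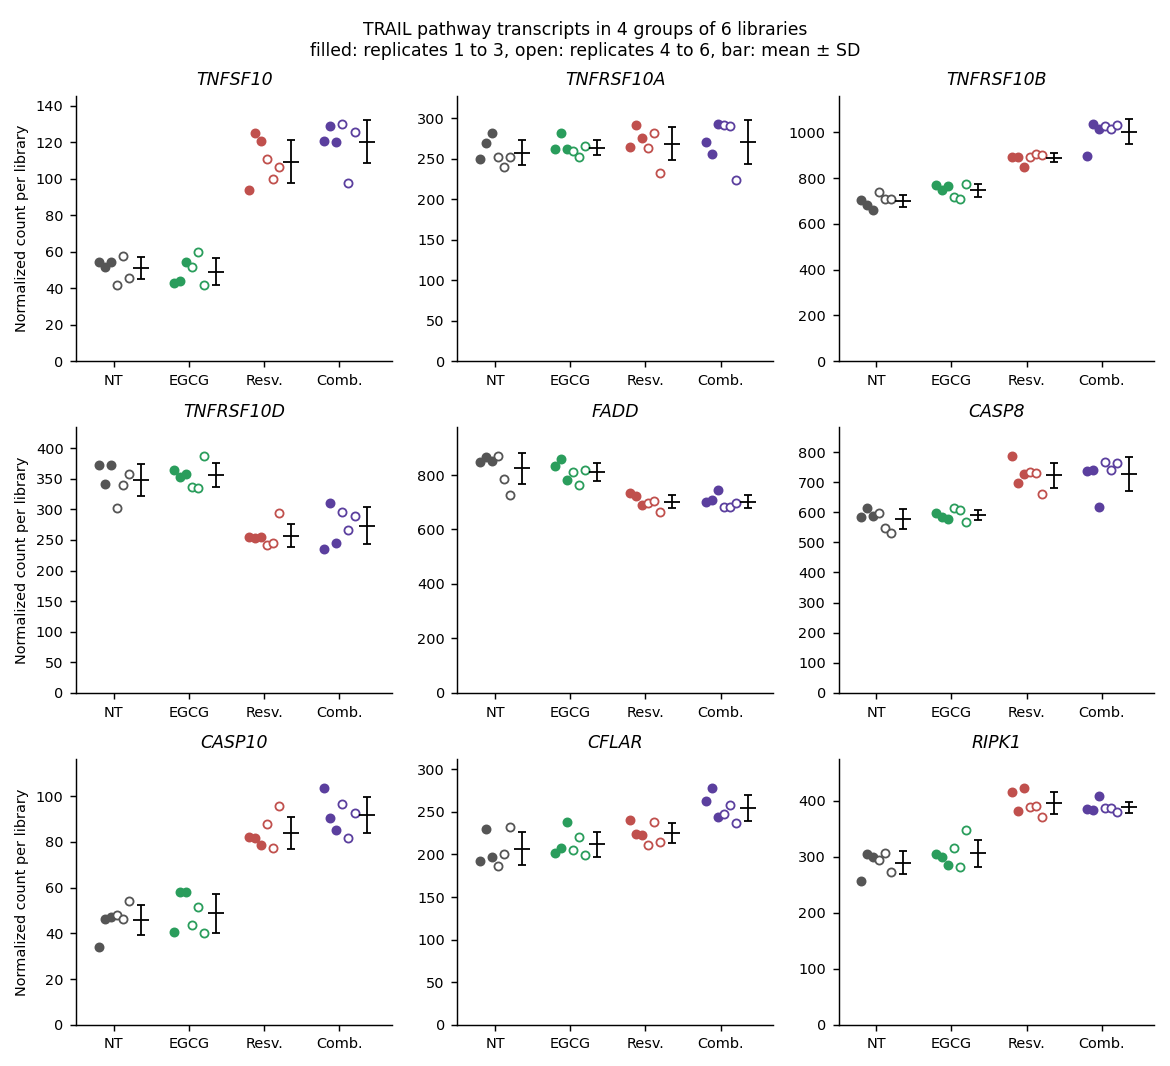
Normalized count per library (vertical axes, from 0) of the 9 tested genes in the 4 groups; filled points are replicates 1 to 3, open points replicates 4 to 6, and bars show mean ± SD. TNFSF10 and CASP10 of the resveratrol-treated groups lie wholly above the groups without resveratrol, TNFRSF10A overlaps in all 4 groups, and TNFRSF10B is highest in the Combination group apart from 1 library.

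The ligand gene changed most in size. TNFSF10 (ENSG00000121858; GRCh38, chromosome 3, 172505508 to 172523475, minus strand) had normalized counts of 41.8, 52.9 and 57.7 (lowest, median and highest of 6) in NT and of 41.6, 47.8 and 59.9 in EGCG. In Resveratrol these were 93.6, 109 and 125, and in Combination 97.4, 123 and 130. Every library with resveratrol thus lay above every library without it. The mean rose from 50.9 ± 6.04 (SD, n = 6) in NT to 109 ± 11.9 with resveratrol and 120 ± 11.9 with the mixture. On the log2 scale the change was 1.11 with resveratrol (SE 0.10, 95% interval 0.91 to 1.32, edgeR adjusted p = 1.05e-11) and 1.24 with the mixture (SE 0.10, interval 1.04 to 1.45, adjusted p = 4.38e-13), or 2.16-fold and 2.37-fold. With EGCG alone it was -0.04 (interval -0.28 to 0.20, adjusted p = 0.961). The values within replicates 1 to 3 and 4 to 6 were 1.09 and 1.13 for resveratrol, 1.21 and 1.29 for the mixture. The gene was covered thinly, with raw counts of 34 to 159 per library.

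The promoter of TNFSF10 is shown because the ligand is a known target of interferon-induced factors, which bind the interferon-stimulated response element (ISRE). The RefSeq window of 250 bases before the start (GRCh38.p14) was searched on both strands for GAAA followed by any 2 bases and a second GAAA, which 3.02% of 35116 such windows hold. The stretch outside annotated exons, chr3:172523476-172523680 read on the minus strand, holds 1 match in capitals, 187 to 178 bases before the RefSeq start and on the strand opposite to the gene, so that it reads as its reverse complement.
TNFSF10: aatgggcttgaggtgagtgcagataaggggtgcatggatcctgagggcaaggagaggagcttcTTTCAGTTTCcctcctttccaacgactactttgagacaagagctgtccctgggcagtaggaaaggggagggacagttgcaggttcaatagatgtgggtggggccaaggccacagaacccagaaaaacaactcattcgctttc
Of the members other than the receptors, 5 had windows in the RefSeq table, 12 in all, and CASP10 is named only. RIPK1 holds 1 match of this kind, TTTCGGTTTC, in the overlapping windows of 2 alternative starts, both of which lie wholly in annotated exons. The other letters searched were TGANTCA of the AP-1 factors (6.57% of all windows), TGACNNNGC of the antioxidant response element core (10.9%) and TGATGNAA of the C/EBP-ATF composite element (3.14%). TGACTCA lies 61 to 55 bases before 1 start of CASP8, and CFLAR has TGAATCA and TGACCACGC in the windows of 2 different starts. None of the 4 motifs is in the FADD window, chr11:70203046-70203295 on the plus strand, which is shown as the promoter of a gene that fell. Each motif is absent from most of all windows, so that this lack does not set FADD apart.
FADD: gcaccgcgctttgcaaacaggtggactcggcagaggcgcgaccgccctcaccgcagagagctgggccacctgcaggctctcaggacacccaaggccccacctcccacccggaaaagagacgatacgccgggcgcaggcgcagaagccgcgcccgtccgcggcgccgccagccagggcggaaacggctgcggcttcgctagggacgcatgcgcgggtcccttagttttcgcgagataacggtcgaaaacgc
A match describes these letters only, and no binding was measured.

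All 4 TRAIL receptor genes lie close together on chromosome 8, between positions 23020133 and 23225102 of GRCh38. TNFRSF10B (ENSG00000120889; 23020133 to 23069031, minus strand), which encodes the death receptor DR5, rose, whereas TNFRSF10D (ENSG00000173530; 23135588 to 23164027, minus strand), which encodes a decoy, fell. TNFRSF10A (ENSG00000104689; 23190452 to 23225102, minus strand), which encodes the death receptor DR4, passed the test in neither comparison. TNFRSF10C (ENSG00000173535; 23102921 to 23117445, plus strand), the other decoy, had 7 counts in 3 of the 24 libraries, 4 of them in 1 library, and was not tested. The gene shares 12616 bases with ENSG00000284956, a protein-coding gene on the same strand with a mean raw count of 0. How reads in shared bases were counted is not given in the sources used here, so that such reads may be missing. TNFRSF10C had no count in the 6 untreated libraries, and 0 counts allow up to 3 in that group by counting error alone. With no filter on low counts, edgeR called it higher with the mixture than in NT (adjusted p = 0.0613), which rests on 4 counts in 1 library.

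TNFRSF10B had normalized counts of 663, 705 and 741 (lowest, median and highest) in NT and of 709, 757 and 772 in EGCG. They were 850.3, 893 and 904 in Resveratrol and 896, 1023 and 1037 in Combination. The groups stood in the order NT, EGCG, Resveratrol, Combination, with overlap between NT and EGCG and, through 1 library of Combination, between the last pair. The log2 fold change was 0.35 with resveratrol (SE 0.0375, edgeR adjusted p = 7.79e-10; 1.27-fold) and 0.52 with the mixture (SE 0.0374, adjusted p = 1.79e-14; 1.44-fold). An exact two-sided permutation test of 6 against 6 libraries gave p = 0.00216 for both, the smallest it can give. The gene overlaps RHOBTB2 on the opposite strand by 377 bases. RHOBTB2 had a mean raw count of 336 beside 845 for TNFRSF10B, and it rose by 0.21 with resveratrol (adjusted p = 0.000361) and by 0.33 with the mixture (adjusted p = 4.67e-07). The strand setting of the counting is not given in the sources used here, so that reads of this overlap could belong to either gene.

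TNFRSF10D had normalized counts of 302, 349 and 373 in NT and 335, 355 and 387 in EGCG. In Resveratrol they were 241, 254 and 294, all below the lowest untreated library. In Combination they were 235, 277 and 311, and 5 of 6 libraries lay below all untreated ones. The log2 fold change was -0.43 with resveratrol (SE 0.0618, edgeR adjusted p = 2.7e-07), which left 0.740 of the untreated level (-0.50 within replicates 1 to 3 and -0.36 within replicates 4 to 6), and -0.35 with the mixture (SE 0.0622, adjusted p = 1.22e-05). Within replicates 1 to 3 the mixture gave -0.46 and within replicates 4 to 6 it gave -0.23, a fall in both sets but of different size.

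TNFRSF10A had medians of 252 in NT, 262 in EGCG, 270.2 in Resveratrol and 280.3 in Combination, with overlap between all groups. Its mean was 257 ± 15.2 (SD, n = 6) in NT and 271 ± 27.0 in Combination. The lowest library of all was 1 of Combination at 224 and the highest was another of the same group at 293. The log2 difference from NT was 0.07 with resveratrol (95% interval -0.05 to 0.19, edgeR adjusted p = 0.362) and 0.08 with the mixture (interval -0.05 to 0.20, adjusted p = 0.293). The upper bounds lay below every called rise with resveratrol except that of CFLAR. Without Combination replicate 6 the mixture gave 0.13 (adjusted p = 0.0613), which passes the threshold. When libraries were scaled by their totals alone the values were 0.16 with resveratrol (adjusted p = 0.0284) and 0.16 with the mixture (adjusted p = 0.0258), and that scaling moved the median of all genes up by 0.09 and 0.08.

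**Figure D2:**
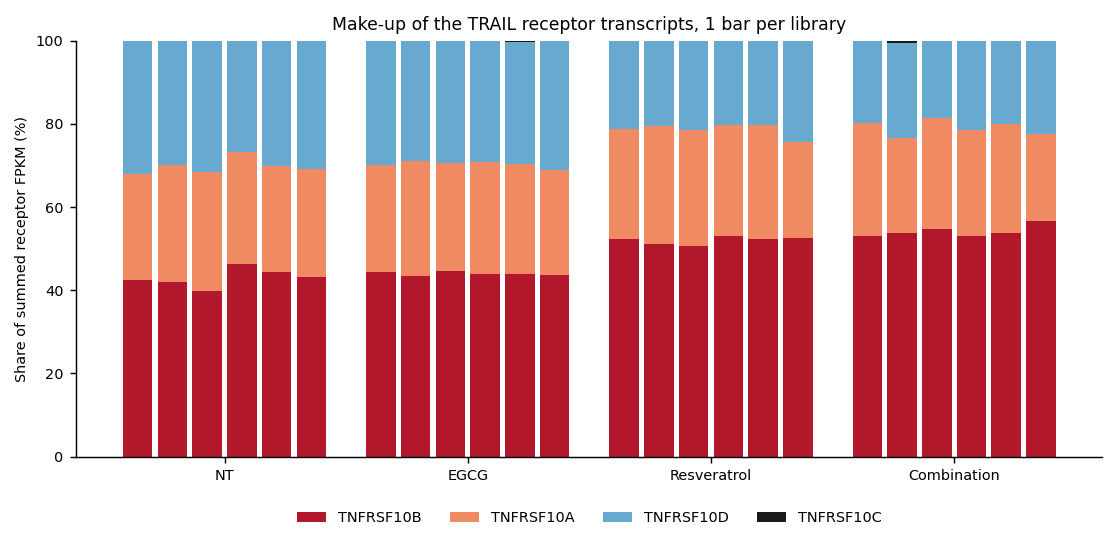
Share of the summed FPKM of the 4 TRAIL receptor genes (vertical axis, percent) in each of 24 libraries, 1 bar per library. TNFRSF10B takes 39.7 to 46.4% in NT and 53.0 to 56.6% in Combination, and the TNFRSF10D share is 26.8 to 31.9% in NT and 18.6 to 22.9% in Combination.

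With a rise in one receptor and a fall in another, the make-up of the receptor transcripts differed between groups. As a share of the summed FPKM of the 4 receptor genes, TNFRSF10B made up 43.0 ± 2.25% (SD, n = 6) in NT, 43.95 ± 0.475% in EGCG, 52.0 ± 0.961% in Resveratrol and 54.2 ± 1.34% in Combination. TNFRSF10D made up 30.2 ± 1.84%, 29.6 ± 0.731%, 21.3 ± 1.58% and 20.9 ± 1.69% in the same order. The share of TNFRSF10A varied less, with 26.8 ± 1.35% in NT and 24.8 ± 2.51% in Combination. The ratio of TNFRSF10B to TNFRSF10D in FPKM was 1.43 ± 0.163 in NT, 1.48 ± 0.0389 in EGCG, 2.45 ± 0.171 in Resveratrol and 2.61 ± 0.207 in Combination. It was 1.26 to 1.73 over the untreated libraries and 2.16 to 2.61 over those with resveratrol alone, with no overlap. The sum over the receptors was 37.3 ± 0.702 FPKM in NT, 38.9 ± 1.39 in EGCG, 39.1 ± 0.597 in Resveratrol and 42.4 ± 2.11 in Combination. These shares and ratios describe transcripts and depend on the gene lengths used, and no receptor on the cell surface was measured.

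FADD (ENSG00000168040; chromosome 11, 70203296 to 70207390, plus strand), the adaptor that links receptor to caspase, fell. Its normalized counts were 727, 849 and 870.2 (lowest, median and highest) in NT and 764, 814 and 860 in EGCG. They were 664, 700.1 and 734 in Resveratrol and 681, 699 and 743 in Combination. In both groups 5 of 6 libraries lay below all untreated ones, the overlap coming from the lowest untreated library. On the log2 scale it changed by -0.23 with resveratrol (SE 0.0406, edgeR adjusted p = 1.39e-05) and -0.23 with the mixture (SE 0.0410, adjusted p = 1.33e-05), leaving 0.855 of the untreated level in both. An exact two-sided permutation test gave p = 0.00433 for each. Even so FADD remained the most abundant member per length, at 43.7 FPKM in Combination.

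The genes of both initiator caspases rose, CASP10 in a larger proportion and CASP8 from a higher level. CASP8 (ENSG00000064012; chromosome 2, 201233443 to 201361836, plus strand) had normalized counts of 532, 587 and 615 in NT, 567, 591 and 613 in EGCG, 661, 729 and 787 in Resveratrol and 616, 739 and 766 in Combination. All libraries with resveratrol lay above all untreated ones, the lowest of Combination by a small margin. Its log2 fold change was 0.33 with resveratrol (SE 0.0463, edgeR adjusted p = 2.33e-07) and 0.33 with the mixture (SE 0.0467, adjusted p = 1.68e-07), or 1.25-fold and 1.26-fold. With the mixture it was 0.23 within replicates 1 to 3 and 0.44 within replicates 4 to 6.

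CASP10 (ENSG00000003400; chromosome 2, 201182872 to 201229428, plus strand) had normalized counts of 34.1, 46.7 and 54.1 in NT and 40.3, 47.7 and 58.2 in EGCG. They were 77.4, 81.9 and 95.6 in Resveratrol and 81.6, 91.7 and 104 in Combination. The groups with and without resveratrol did not overlap. The log2 fold change was 0.87 with resveratrol (SE 0.104, edgeR adjusted p = 8.6e-09; 1.83-fold) and 1.00 with the mixture (SE 0.104, adjusted p = 3.14e-10; 1.995-fold). Within replicates 1 to 3 and 4 to 6 the mixture gave 1.13 and 0.86. CASP10 nevertheless stayed near the bottom of the members per length, at 1.38 FPKM in Combination against 11.5 for CASP8.

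CFLAR (ENSG00000003402; chromosome 2, 201116154 to 201176687, plus strand) lies beside CASP10 and CASP8 and rose with the mixture, while its change with resveratrol alone was small. Its normalized counts were 187, 199 and 232 in NT, 199, 207 and 238 in EGCG, 211, 223 and 241 in Resveratrol and 237, 253 and 278 in Combination. The Combination libraries lay above all untreated ones, whereas those with resveratrol alone overlapped them. The log2 fold change was 0.30 with the mixture (SE 0.0611, edgeR adjusted p = 6.92e-05; 1.23-fold). With resveratrol alone it was 0.13 (SE 0.0613, 95% interval 0.00 to 0.25, adjusted p = 0.0766), a call that 12 of 23 alternatives did not keep, among them DESeq2 (adjusted p = 0.165) and the fits without NT replicate 1, 3 or 4 or Resveratrol replicate 1, 2, 3 or 5. The value was 0.10 to 0.22 over all 23, with 0.16 within replicates 1 to 3 and 0.10 within replicates 4 to 6. An exact two-sided permutation test of that comparison gave p = 0.0649. The ratio of CASP8 to CFLAR in FPKM was 8.75 ± 1.01 (SD, n = 6) in NT, 8.68 ± 0.62 in EGCG, 9.97 ± 0.487 in Resveratrol and 8.89 ± 0.818 in Combination, with overlap between NT and each treated group. Its size depends on the gene lengths used: mean normalized counts in NT were 578 for CASP8 and 207 for CFLAR. The deposited values are per gene and do not separate the long and short forms of c-FLIP, which differ in function.

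RIPK1 (ENSG00000137275; chromosome 6, 3063824 to 3115187, plus strand) rose to about the same level with and without EGCG beside resveratrol. Its normalized counts were 256, 297 and 306 in NT, 282, 302 and 348 in EGCG, 372, 390.4 and 423 in Resveratrol and 380.2, 386 and 409 in Combination. No library with resveratrol fell within the range of the other groups. On the log2 scale the rise was 0.46 with resveratrol (SE 0.0515, edgeR adjusted p = 1.82e-09) and 0.43 with the mixture (SE 0.0523, adjusted p = 8.11e-09). Resveratrol gave 0.51 within replicates 1 to 3 and 0.40 within replicates 4 to 6. Counted over the members, 6 of 9 showed no overlap between resveratrol and NT, beside 31.0% of all genes, and 6 of 9 between the mixture and NT, beside 31.9%. TNFRSF10D was in the first count and CFLAR in the second.

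**Figure D3:**
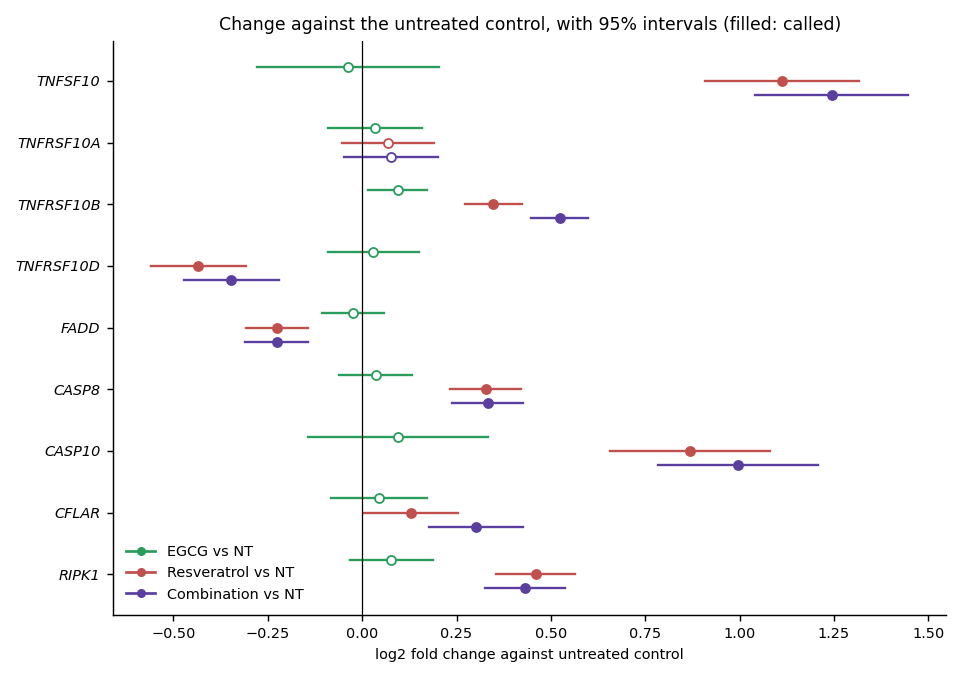
log2 fold change against NT (horizontal axis) of the 9 tested genes for EGCG, resveratrol and the mixture, with 95% intervals from edgeR; filled points passed the test. TNFSF10 has the largest values (1.11 and 1.24), TNFRSF10D and FADD lie left of 0 with resveratrol and with the mixture, and all EGCG points are open.

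EGCG alone gave no call among the 9 members, where 1.76% of all genes were called. Of the members 1, TNFRSF10B, had an unadjusted p below 0.05 with edgeR, and DESeq2 called none. TNFRSF10B was 0.09 higher on the log2 scale (SE 0.0382, 95% interval 0.02 to 0.17, edgeR adjusted p = 0.332). All 6 EGCG libraries were above the untreated mean and 4 were above every untreated library, and an exact two-sided permutation test gave p = 0.0152 without adjustment. The value was 0.16 within replicates 1 to 3 and 0.02 within replicates 4 to 6, so that it came mainly from the first set. The other 8 members had adjusted p-values of 0.678 to 0.961. Their intervals ran at most from -0.28 for TNFSF10 to 0.33 for CASP10, and changes of the size seen with resveratrol in either gene fall outside them. Between replicates 1 to 3 and 4 to 6 the EGCG value of TNFSF10 went from -0.18 to 0.12 and that of CASP10 from 0.29 to -0.10.

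What EGCG added in the presence of resveratrol was asked by setting the mixture against resveratrol alone. Of the 9 members 2 were called, both higher, beside 7.86% of all genes, 4.01% of them higher. TNFRSF10B was 0.18 higher (SE 0.0366, 95% interval 0.10 to 0.25, edgeR adjusted p = 0.0022), or 1.13-fold. In 5 of the 6 Combination libraries it lay above every library with resveratrol alone, and the exact two-sided permutation test gave p = 0.0108. The difference was 0.16 within replicates 1 to 3 (adjusted p = 0.113, not called with 3 libraries a group) and 0.19 within replicates 4 to 6. CFLAR, the gene of the inhibitor c-FLIP, was 0.17 higher (SE 0.0600, interval 0.05 to 0.30, adjusted p = 0.0893), with 5 of 6 libraries above every library of resveratrol alone (exact permutation p = 0.00649). That call was lost in 14 of 23 alternatives, among them without Resveratrol replicate 2, 3, 4 or 6 or Combination replicate 1, 2 or 5, while the difference was 0.15 to 0.19 over all 23.

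The remaining 7 members did not pass this test. TNFSF10 differed by 0.13 (95% interval -0.04 to 0.31, edgeR adjusted p = 0.451), CASP10 by 0.13 (interval -0.06 to 0.31, adjusted p = 0.508) and TNFRSF10D by 0.09 (interval -0.04 to 0.22, adjusted p = 0.526). For CASP8 the difference was 0.00 (interval -0.09 to 0.10), for FADD 0.00 (interval -0.08 to 0.08), for TNFRSF10A 0.01 (interval -0.11 to 0.13) and for RIPK1 -0.03 (interval -0.13 to 0.07). For these last 4 genes, then, a further change by more than 0.13 on the log2 scale lies outside the interval, while TNFSF10 and CASP10 have wider intervals and lower counts.

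The interaction term, which is the mixture's change beyond the sum of both single-agent changes on the log2 scale, was called for none of the 9 members by edgeR or DESeq2, beside 0.265% of all genes. None had an unadjusted p below 0.05 with edgeR. It was 0.08 for TNFRSF10B (95% interval -0.03 to 0.19), 0.13 for CFLAR (interval -0.05 to 0.30), 0.17 for TNFSF10 (interval -0.13 to 0.47) and -0.11 for RIPK1 (interval -0.25 to 0.04), with adjusted p-values of 0.776 to 0.981 over the members. The higher TNFRSF10B and CFLAR levels in the mixture were thus not shown to exceed the sum of the single changes.

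**Figure D4:**
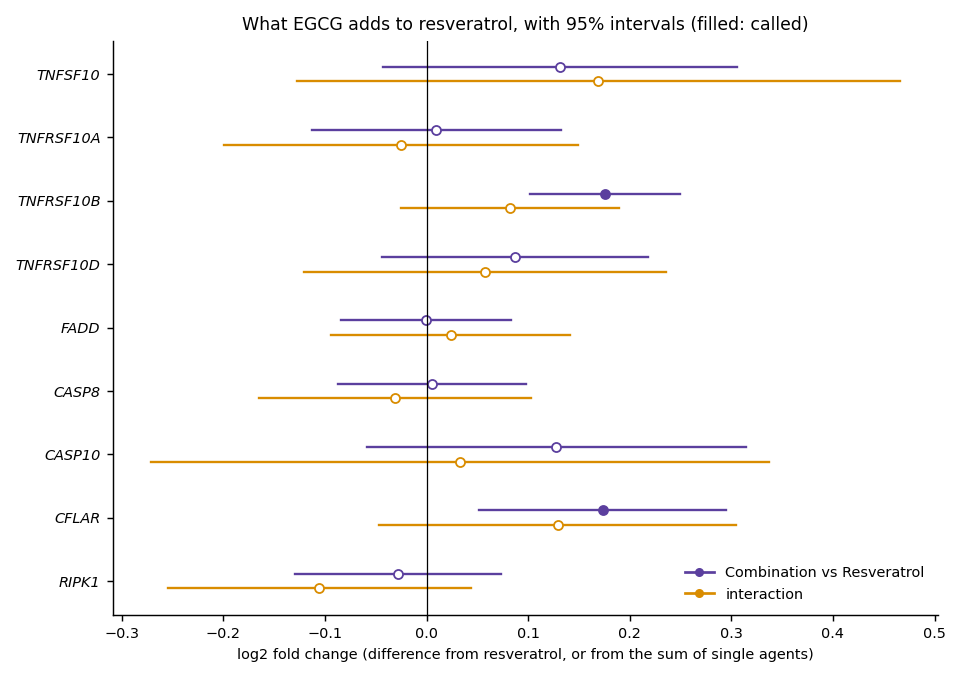
log2 difference of the mixture from resveratrol alone and the interaction term (horizontal axis) for the 9 tested genes, with 95% intervals from edgeR; filled points passed the test. TNFRSF10B (0.18) and CFLAR (0.17) are filled in the first comparison, and every interval of the interaction crosses 0.

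Seen from the EGCG group, adding resveratrol gave 8 calls among 9 members, 6 higher and 2 lower, beside 57.8% of all genes, 28.7% higher and 29.1% lower. TNFSF10 was 1.28 higher on the log2 scale, CASP10 0.90, TNFRSF10B 0.43, RIPK1 0.35, CASP8 0.30 and CFLAR 0.26, with edgeR adjusted p-values of 3.23e-13 for TNFSF10 to 0.000539 for CFLAR. TNFRSF10D fell by 0.38 and FADD by 0.20. For 7 of 9 members no library of one group lay within the range of the other, beside 27.5% of all genes. TNFRSF10A differed by 0.04 (interval -0.08 to 0.17, adjusted p = 0.586).

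Beyond the members, 40 further genes of death receptor signalling were taken from 4 lists, and 36 of them could be tested. Resveratrol gave 24 calls among these, 18 higher and 6 lower, and the mixture gave 25, 18 higher and 7 lower, beside the shares of all genes above. The median log2 fold change of the 36 was 0.08 with resveratrol and 0.11 with the mixture. Among the death receptors and ligands outside TRAIL 7 of 10 were tested and 4 rose in both comparisons. Those 4 were all calls of this list, at 57.1% of the 7, beside 56.9% and 59.8% of all genes called in either direction. Called higher were 28.9% and 29.9% of all genes. FAS, the receptor of the Fas ligand, rose by 0.39 (edgeR adjusted p = 0.00244) and by 0.39 with the mixture, from a mean of 62.6 ± 7.92 to 81.8 ± 6.92 and 82.0 ± 10.8 normalized counts. NGFR, the p75 neurotrophin receptor, rose by 0.91 and 0.98 and TNFSF15, the ligand TL1A, by 0.96 (SE 0.22) and 1.57 (SE 0.21). TNFSF15 had few counts, with means of 8.83 ± 2.54 in NT, 17.5 ± 3.85 in Resveratrol and 26.6 ± 6.39 in Combination. TNFRSF1A, the main receptor of tumour necrosis factor, had differences of 0.00 and 0.03 that did not pass. The ligand genes TNF and FASLG, with 41 and 1 counts over all 24 libraries, could not be tested, and neither could RIPK3 with 9, the kinase of necroptosis.

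Of the adaptors, kinases and ubiquitin regulators of the receptor complexes 15 of 16 were tested, with 7 higher and 2 lower for resveratrol, and 8 higher and 3 lower for the mixture. The calls made up 60% and 73.3% of the 15, beside 56.9% and 59.8% of all genes. The genes that rose included inhibitors of cell death. BIRC3, which encodes the ubiquitin ligase cIAP2, had mean normalized counts of 106 ± 13.7 in NT, 147 ± 20.3 in EGCG, 195 ± 12.1 in Resveratrol and 318 ± 35.7 in Combination. Its log2 fold change was 0.46 with EGCG (edgeR adjusted p = 0.00492), 0.88 with resveratrol and 1.58 with the mixture. BIRC2 (0.31 and 0.37 with resveratrol and the mixture), which encodes cIAP1, and XIAP (0.31 and 0.31), which encodes a direct caspase inhibitor, also rose. So did CYLD (0.45 and 0.65), a deubiquitinase that trims chains from the complexes, and TRADD (0.44 and 0.56), the adaptor of the tumour necrosis factor receptor. TRAF2 fell (-0.30 and -0.24), as did CUL3 (-0.33 and -0.43), a scaffold of ubiquitin ligases that act on caspase-8.

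Among the 36 pathway genes tested, 1 had a called interaction (2.78%), beside 0.265% of all genes. This was TNFAIP3, which encodes the ubiquitin-editing enzyme A20. Its mean normalized counts were 464 ± 33.0 in NT, 531 ± 44.6 in EGCG, 464 ± 20.7 in Resveratrol and 669 ± 36.0 in Combination. The log2 change was 0.20 with EGCG (edgeR adjusted p = 0.0467), 0.00 with resveratrol and 0.53 with the mixture, and the interaction was 0.33 (SE 0.0724, adjusted p = 0.0292). That call was lost in replicates 1 to 3 alone, where 0 of the 36 pathway genes were called. The libraries of the mixture, at 633 to 721, lay above all others, of which the highest was an EGCG library at 581.

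Of the caspases and mitochondrial genes that take the signal further, all 8 were tested, and they were called in both directions, 3 higher and 4 lower with resveratrol and 2 higher and 4 lower with the mixture. The calls made up 87.5% and 75% of the 8, beside 56.9% and 59.8% of all genes. Among caspases, CASP9 (0.62 and 0.65), the caspase of the apoptosome, rose in both comparisons. BID (0.22 and 0.24), which caspase-8 cleaves to reach mitochondria, rose too. In both comparisons 4 genes of the list fell, namely BAX (-0.12 and -0.17), BAK1 (-0.23 and -0.18), CYCS (-0.20 and -0.22), which encodes cytochrome c and has near-identical pseudogenes that could share its reads, and APAF1 (-0.25 and -0.32), the core of the apoptosome. DIABLO (-0.05 and 0.01) and HTRA2 (-0.12 and -0.02), mitochondrial proteins of the list of adaptors and regulators, did not pass. CASP6 passed with resveratrol alone (0.27) and not with the mixture (0.11), while the mixture against resveratrol alone was not called for it.

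The last list held 6 regulators linked to TNFRSF10B transcription, among them activators and, with YY1, a known repressor. Of these 4 rose in both comparisons, with a list median of 0.38 for resveratrol and 0.58 for the mixture. Those 4 were all calls of this list, at 66.7% of the 6, beside 56.9% and 59.8% of all genes called in either direction. Called higher were 28.9% and 29.9% of all genes. ATF3, a stress-induced transcription factor, had mean normalized counts of 114 ± 4.67 in NT, 121 ± 7.95 in EGCG, 296 ± 18.3 in Resveratrol and 394 ± 40.7 in Combination. Its log2 fold change was 1.38 with resveratrol (edgeR adjusted p = 9.83e-19) and 1.80 with the mixture. DDIT3, which encodes CHOP, rose by 0.83 and 1.08, and TRIB3, a pseudokinase gene that CHOP activates, by 0.68 and 1.04. ATF4, a factor of the integrated stress response, rose by 0.08 and 0.12. SP1 (-0.07 and -0.01) and YY1 (-0.03 and -0.04) did not pass.

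Between the mixture and resveratrol alone, 9 of the 36 pathway genes were called, 8 higher and 1 lower, beside 7.86% of all genes, 4.01% higher. Of the 6 regulators linked to TNFRSF10B, ATF3 was higher by 0.41 (edgeR adjusted p = 6.44e-06), TRIB3 by 0.35 and DDIT3 by 0.25. ATF4 (0.04), SP1 (0.05) and YY1 (-0.01) were not called. TNFRSF10B itself was higher by 0.18, and a link to these genes was not tested. BIRC3 was higher by 0.70, TNFAIP3 by 0.53, CYLD by 0.20 and RBCK1, a part of the linear ubiquitin chain complex, by 0.14. TNFSF15, with few counts, was higher by 0.61 (SE 0.18). MLKL, the effector of necroptosis, was lower (-0.21). Of the caspases and mitochondrial genes none was called with edgeR, and 1 had an unadjusted p below 0.05. With EGCG alone 3 of 36 were called, beside 1.76% of all genes, all higher: BIRC3 (0.46), TNFAIP3 (0.20) and TRIB3 (0.20). In replicates 1 to 3 alone 1 of 36 was called, and in replicates 4 to 6 alone 1.

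**Figure D5:**
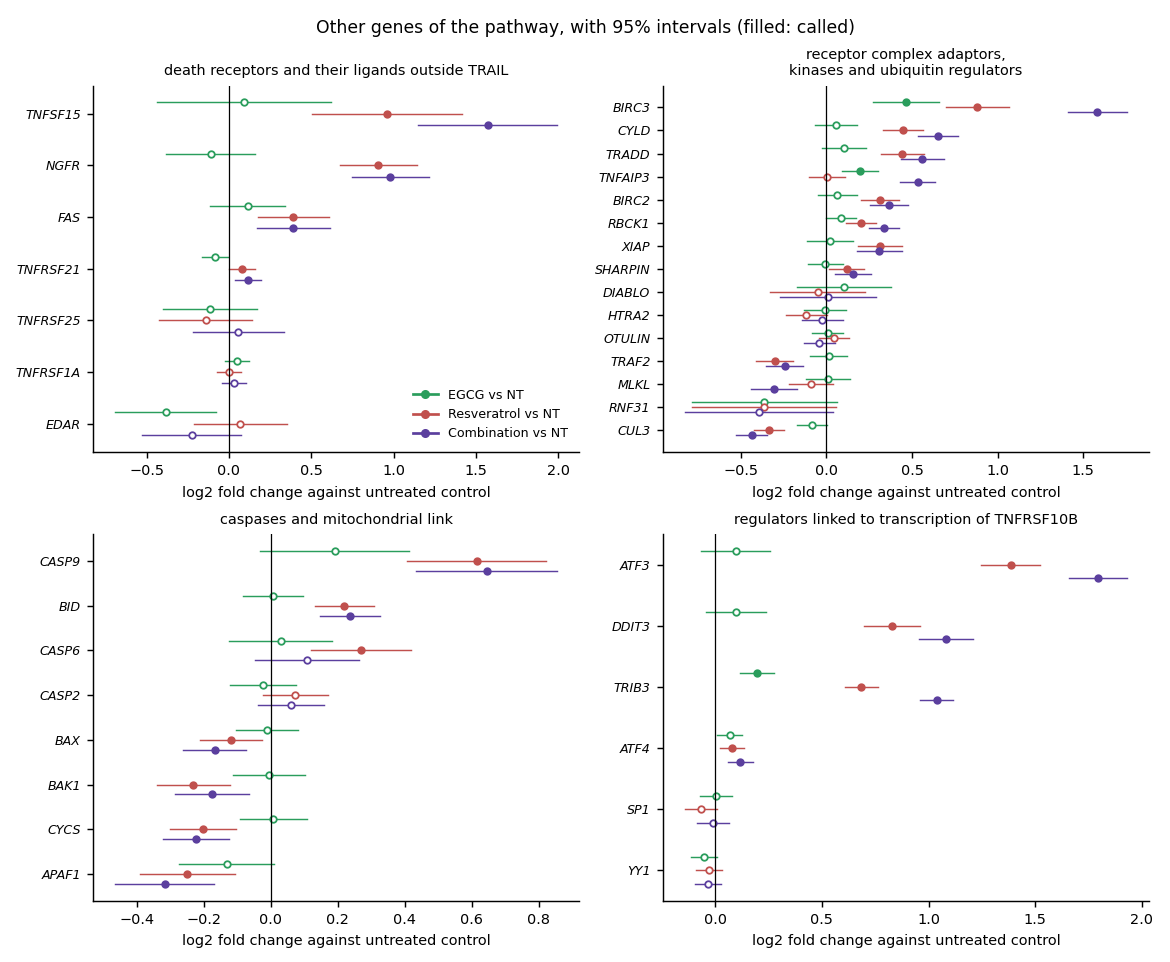
log2 fold change against NT (horizontal axes) of the 36 tested genes of the 4 further lists, with 95% intervals from edgeR, for EGCG, resveratrol and the mixture; filled points passed the test. ATF3 (1.38 and 1.80) and BIRC3 (0.88 and 1.58) have the largest values of their lists, and BAX, BAK1, CYCS and APAF1 lie left of 0 with resveratrol and with the mixture.

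For the ligand and for DR5 the genes with the most similar pattern were named by Pearson's r of log2 CPM over all 24 libraries. The libraries fall into those with and without resveratrol, and over such a split these values of r are a description only. Nearest to TNFRSF10B were GPT2 (r = 0.971), EPAS1 (0.967), TMUB2 (0.962), ARHGEF2 (0.961) and SEZ6L2 (0.959). With resveratrol and with the mixture these had log2 fold changes of 0.34 and 0.49 for GPT2 and of 0.82 and 1.07 for EPAS1, larger with the mixture as for TNFRSF10B. Nearest to TNFSF10 were CTSV (0.978), GABARAPL1 (0.970), GCLC (0.968), CDKN2B (0.967) and AKR1C1 (0.965). AKR1C1, an aldo-keto reductase gene, had 2.24 and 2.19, with near-identical family members between which reads could be split.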

How the data were processed

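RNA from 686Tu cells in sextuplicate per group was made into TruSeq stranded mRNA libraries and sequenced as paired reads. The submitters' processing notes name bcl2fastq 2.17.1.14, Trimmomatic 0.36, FastQC 0.11.5, HISAT2 2.0.4, SAMtools 1.3.1, DESeq2 1.20.0 and the build GRCh38. The counting program, annotation release and strand setting are not given in the sources used here. For each library the authors deposited a raw count per gene, not normalized. The deposited normalized counts are a signal equal to the raw count divided by 1 factor per library. The FPKM values, deposited by the authors, were in a constant ratio to these for each gene.

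A single edgeR 4.0.16 model was fitted to the raw counts of the 24 libraries (R 4.3.3; TMM scaling, low counts filtered by group, quasi-likelihood test), 15476 genes were tested, and p-values were adjusted over them by Benjamini-Hochberg. Fold changes are relative to TMM scaling. Symbols and positions came from GENCODE release 44. Each tested member was also compared by an exact two-sided permutation test on log2 CPM (scipy 1.17.1; prior count 2). Groups were taken from the labels. Intervals are 95% intervals, and limits on a count of 0 cover counting error only. Alternatives were DESeq2 1.42.0, scaling by library totals or relative log expression, other filters and thresholds, the replicate number as a block, the replicate set as a term, replicates 1 to 3 or 4 to 6 alone, and each library left out. The members and lists were chosen with earlier results of these data known. Named are all members, the called genes of the lists that are listed in the text, and the 5 genes most like TNFSF10 and TNFRSF10B. Promoter sequences are from RefSeq (GRCh38.p14). None is shown for the receptor genes. Some genes of the lists are not reported here.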

Additional observations from a re-analysis of the deposited data

Results flagged for a closer look

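In 6 of 36 groups of 6 libraries, 1 library stood apart from the other 5 in a member's normalized count by Dixon's test, where chance gives about 1 in 20 groups. For TNFRSF10B these were Combination replicate 1, at 896 with the next at 1014, and Resveratrol replicate 3, at 850.3 with the next at 891. Without that Combination library the mixture was 0.55 above NT and 0.21 above resveratrol on the log2 scale, and without that Resveratrol library it was 0.16 above resveratrol. CASP8 was low in Combination replicate 3, at 616 with the next at 739, and without it the mixture was 0.38 above NT. RIPK1 was high in the same library, at 409 with the next at 387. TNFSF10 was low in Combination replicate 5, at 97.4 with the next at 120, and its change with the mixture was 1.29 without it. TNFRSF10D was high in Resveratrol replicate 6, at 294 with the next at 255, and its change with resveratrol was -0.47 without it. Each of these calls was kept without the library named.

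TNFAIP3 met the rule on a difference between effects, with an interaction of 0.33 on the log2 scale (edgeR adjusted p = 0.0292), which is its change with the mixture beyond the sum of the changes with both single agents. TNFAIP3 was the 1 call among the 36 pathway genes, beside 0.265% of all genes, and it was not called in replicates 1 to 3 alone.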

How the results depend on the processing

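Over 9 members and 6 comparisons, 1311 alternative fold changes kept the call or the lack of one given above, 27 lost a call and 3 gained one, and none of the called values changed sign. The number of members called between the mixture and resveratrol (2) was 1 with DESeq2, with scaling by library size alone, with every gene of at least 1 count tested, with an adjusted p under 0.05, with only the groups compared and in replicates 4 to 6 alone, and 0 in replicates 1 to 3 alone. It was 1 to 2 with single libraries left out. CFLAR was the gene lost, and in replicates 1 to 3 TNFRSF10B too. Fewer libraries enter the fits on replicates 1 to 3 or 4 to 6, on only the groups compared and with single libraries left out. The other settings named use all 24 libraries. In the main fit CFLAR had an edgeR adjusted p of 0.0893, close to the threshold of 0.1. The cause of the lost calls was otherwise not tested. Pathway genes called with EGCG (3) were 1 in replicates 1 to 3, 1 in replicates 4 to 6 and 2 to 3 with single libraries left out. The interaction of TNFAIP3 was lost in replicates 1 to 3 alone, where 0 pathway genes were called.

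With single libraries left out, 7 to 8 members were called with resveratrol, 8 to 9 with the mixture, 8 against EGCG, and 0 with EGCG and for the interaction. Deviations of same-numbered libraries correlated weakly but mostly positively, at -0.0111 to 0.131, and over 0.1 in 2 of 36 pairs. Of the 24 libraries 11 correlated best with their own number, a count that was not compared with chance. Whether the replicate numbers pair the libraries was therefore not tested. With the replicate number as a block 0, 8, 8, 2, 8 and 0 members were called in the order of the comparisons above, as without it, and TNFSF10 was 1.24 higher with the mixture. The interaction has no fit limited to the groups compared, since it needs all 4. TNFRSF10C was left untested by its low counts, the cause of which was not tested. Of the tested members TNFSF10 and CASP10 had the fewest reads, with raw counts down to 33 in a library.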
